A study of Mus musculus with 104 samples.

Results

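The dorsomedial hypothalamic nucleus (DM) of adult male mice was compared with 11 other hypothalamic regions by microarray. DM was represented by the arrays titled DM_rep1 and DM_rep2, which are 2 of the arrays in a series that holds 2 for each of 52 tissues, and the other hypothalamic regions by 22 arrays, 2 each. Those regions were the mammillary body (M), median eminence (ME), suprachiasmatic nucleus (SCN), medial preoptic area (MPA), supraoptic nucleus (SO), paraventricular hypothalamic nucleus (Pa), the ventral and dorsal parts of the subparaventricular zone (SPa_ventral and SPa_dorsal), ventromedial hypothalamic nucleus (VMH), arcuate hypothalamic nucleus (Arc) and lateral hypothalamus (LH). Each region had the same weight in the mean of the other hypothalamus. All groups came from untreated Balb/c males aged 7 to 8 weeks that had been kept in a cycle of 12 hours light, 12 hours dark, and the labels allow sampling in that cycle or in constant darkness without saying which applies to an array. Bilateral punches from brain slices of 0.5 mm were taken every 4 hours over a day, and the 6 time points of a region were pooled, so no daily rhythm can be read from an array. Each region was sampled 2 times, but the number of animals in a pool is not given. The p-values therefore measure the spread between these arrays.

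The dorsomedial nucleus lies above the ventromedial and arcuate nuclei beside the third ventricle, and it takes part in feeding, body temperature, stress responses and the daily timing of sleep and activity. Orexin neurons, which make the arousal peptides encoded by Hcrt, and melanin-concentrating hormone (MCH) neurons, which make the peptides encoded by Pmch, lie in the lateral hypothalamus and extend into the dorsomedial and perifornical tissue next to it. Neurons of the dorsomedial nucleus itself include cells that make RFamide-related peptides from Npvf, as well as cells with galanin, thyrotropin-releasing hormone or gastrin-releasing peptide.

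Hcrt, Pmch and Npvf were the secreted peptide genes that were furthest above the other hypothalamic regions in DM, and the 250 bases before each gene's start are printed here to show which genomic segments these transcripts begin from. The sequences are those of RefSeq on GRCm38.p6, written 5' to 3' on the gene's own strand, with the motif TATAAA in capitals. They lie at chr11:100762932-100763181 on the minus strand for Hcrt, at chr10:88090822-88091071 on the plus strand for Pmch and at chr6:50654446-50654695 on the minus strand for Npvf.
Hcrt: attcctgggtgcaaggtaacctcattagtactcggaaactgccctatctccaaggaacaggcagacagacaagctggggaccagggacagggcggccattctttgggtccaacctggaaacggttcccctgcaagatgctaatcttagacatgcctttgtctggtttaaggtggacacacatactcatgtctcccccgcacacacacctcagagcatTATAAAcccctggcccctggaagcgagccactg
Pmch: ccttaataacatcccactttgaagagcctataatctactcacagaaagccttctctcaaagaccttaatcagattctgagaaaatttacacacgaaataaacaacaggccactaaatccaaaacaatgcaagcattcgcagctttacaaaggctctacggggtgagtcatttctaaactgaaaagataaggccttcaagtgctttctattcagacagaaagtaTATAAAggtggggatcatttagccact
Npvf: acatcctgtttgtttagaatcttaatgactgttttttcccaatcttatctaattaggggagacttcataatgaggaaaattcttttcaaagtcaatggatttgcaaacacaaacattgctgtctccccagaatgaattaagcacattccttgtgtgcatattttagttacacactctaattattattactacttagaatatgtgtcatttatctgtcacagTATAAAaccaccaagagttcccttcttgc
Each segment held 1 TATAAA on the gene's strand and 0 on the other strand, and the motif began 33 bases before the start of Hcrt, 27 before Pmch and 29 before Npvf. Among all 32851 promoter segments of that length in the table, 4063 (12.4%) held TATAAA on either strand, and 702 (2.14%) held it on the gene's strand between 20 and 45 bases before the start. Of the 116 genes called higher in DM below, 94 had segments there, 130 in all. Of these segments, 14 (10.8%) held the motif on either strand and 7 (5.38%) at that distance. The segments of Hcrt, Pmch and Npvf printed above are among both the 14 and the 7. A match of letters is a description of the sequence and no measurement of what binds it.

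The deposited values are robust multi-array average (RMA) signals on the log2 scale, from 3.88 to 15.15, with a median of 7.39, and where the lower group lies below that median the size of a fold change is uncertain. The DM arrays correlated at r = 0.996 across genes with a median SD of 0.09, against r = 0.993 to 0.998 and SDs of 0.05 to 0.11 in the other regions. Hybridisation controls averaged 9.99 and 9.33 on the DM arrays, against 9.20 to 11.58 with a median of 10.82 on the other 22. Their part in the results was not tested beyond a comparison with the 6 regions of nearest controls. In that comparison 121 genes were higher and 103 lower. Of those 6 regions, Pa and Arc averaged 10.65 and 10.77 against 9.66 in DM, so the set was not closely matched on controls. Across genes the regional mean of DM was most like LH and SPa_ventral (r = 0.988 each), Pa (0.987) and the ventral tegmental area, VTA (0.986).

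Marker genes did not all follow the region labels. In the arrays labelled LH, Pmch was 7.66 and 7.73 and Hcrt 7.32 and 7.78, near the median of all values, so neither peptide gene marked that tissue, whereas Lhx8, a factor of basal forebrain cholinergic neurons, was 9.70 and 8.98 there. Nr5a1, the defining factor of ventromedial neurons, was 9.18 and 9.27 in SPa_dorsal, against 8.49 and 8.51 in VMH itself. Npvf and Ppp1r17, genes of the dorsomedial nucleus, were highest in DM of the 12 regions, though Ppp1r17 was also 8.32 in SCN and 8.21 in MPA. Of 12 measured dorsomedial genes, 5 were called higher in DM and 7 were not, where 0.638% of all genes were called higher. The mean level of the 12 genes was 9.02 and 8.83 on the DM arrays, against 8.47 at the highest of the other hypothalamic arrays. The list was chosen with earlier results of these data known, so it does not settle the label. DM was the region in which Hcrt was high. Comparisons with LH are therefore comparisons with the piece that carries that label. In pooled tissue of this kind, fewer cells of a type and less RNA per cell cannot be told apart.

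Of 18193 genes tested, 116 (0.638%) were at least 2-fold higher in DM and 73 (0.401%) at least 2-fold lower than the mean of the other 11 regions, by limma with Benjamini-Hochberg adjustment at 0.05. Among the 116 higher genes, 82 had their highest mean of the 12 regions in DM, and 58 had both DM arrays above all 22 other hypothalamic arrays, a position that 3.74% of all genes held. Of the 73 lower genes, 37 had their lowest mean in DM and 10 had both arrays below all 22, which 1.06% of all genes did. Both arrays were below all other arrays of the series in 3 of the 73, against 0.143% of all genes. The called genes were picked for being high or low in DM, so a high share of first or last places follows from the choice. The share of all genes with DM first or last of the 12 regions was not counted. The limma test sets DM against the spread between arrays of a region. When the 12 regional means were used as single samples, so that DM was set against the spread among regions, 4 genes (0.022%) were called higher and 0 (0%) lower, and at an unadjusted p under 0.05 with the same fold the counts were 65 and 1. The 4 genes were Hcrt (adjusted p = 0.00263), Crhbp (adjusted p = 0.00911), Neurod6 and C130021I20Rik, the last a provisional name. Neurod6 and C130021I20Rik were singled out after their values were seen, as was Wif1, an inhibitor of Wnt signalling, which differed by 2.64 but averaged only 7.19 in DM.

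**Figure D1:**
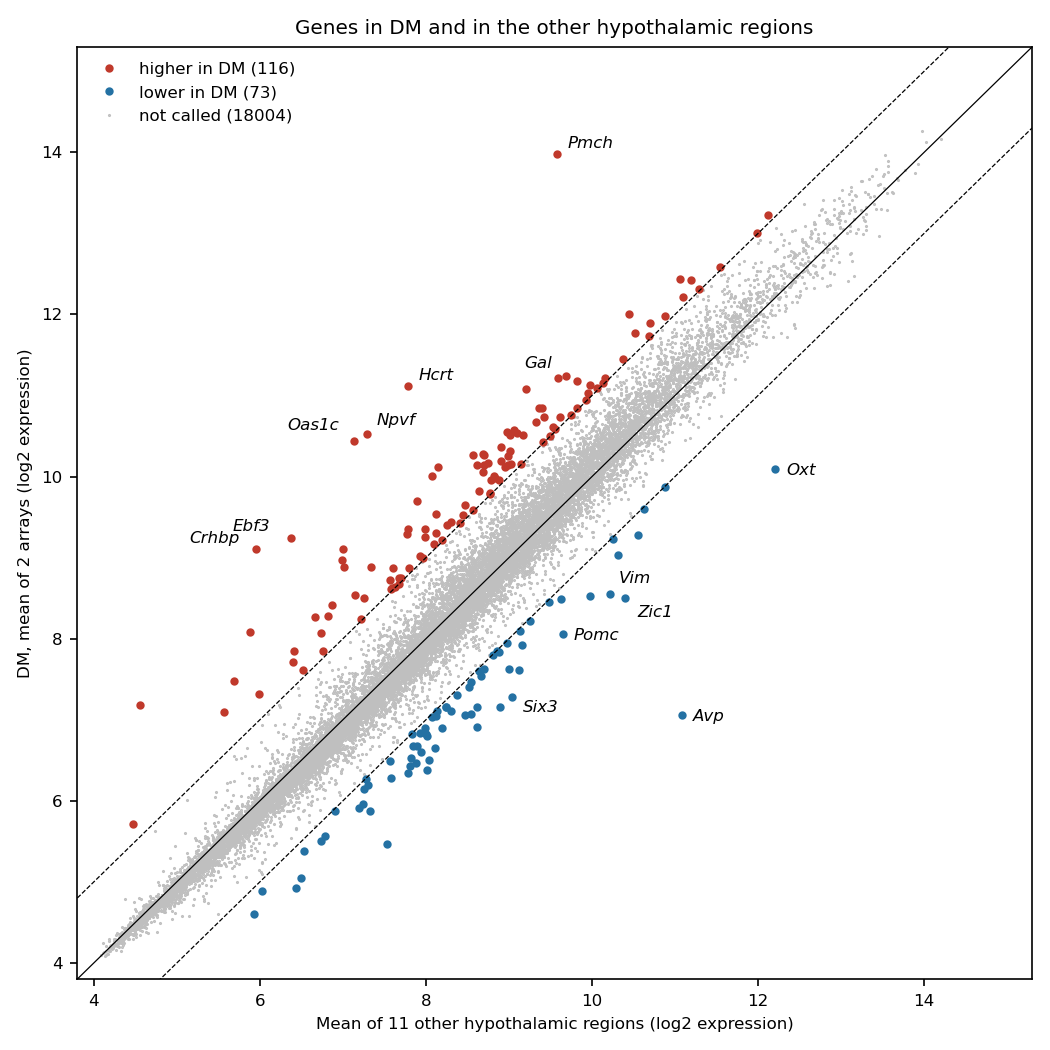
Each point is a gene, with the mean of the 11 other hypothalamic regions on the horizontal axis and the mean of the 2 DM arrays on the vertical axis, both in log2 expression. The solid line marks equal levels and the dashed lines a 2-fold difference. Pmch, Hcrt, Oas1c, Npvf, Crhbp and Ebf3 stand furthest above the line among the 116 genes called higher (red), and Avp furthest below it among the 73 called lower (blue).

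The MCH and orexin precursors had the largest upward differences in the comparison. Hcrt was 11.17 and 11.05 in DM, and 7.32 at the lowest, 7.69 at the median and 8.60 at the highest in the other 22 arrays. Both DM arrays lay far above every other hypothalamic array, and above all other arrays of the series, a position that 0.698% of all genes held. The gap to the nearest array was 2.44, the largest of all named genes. The difference was 3.33 ± 0.11 (log2, SE), or 10.02-fold (adjusted p = 2.06e-34). The next regions were SO at 8.28 ± 0.23, VMH at 8.21 ± 0.19 and Pa at 8.20 ± 0.58 (SD, n = 2 each), which did not differ beyond their spread.

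Pmch had another distribution. It was 13.93 and 14.03 in DM, against 6.60 at the lowest, 8.92 at the median and 13.79 at the highest in the other arrays. The DM arrays were highest but only 0.14 above the nearest array, and Pmch was also high in Pa (13.41 ± 0.54), SPa_dorsal (13.25 ± 0.48) and VMH (12.78 ± 0.28), and it was 9.96 ± 0.70 in SPa_ventral and 9.69 ± 0.72 in SO. The means of DM and Pa differed by little more than the SD of the Pa arrays. The difference from the mean of the 11 regions was 4.41 ± 0.27, or 21.2-fold (adjusted p = 2.6e-20), and with regional means as samples the adjusted p was 0.898. Pmch in Arc was 7.82 and 7.45, and in MPA it was lower still, at 6.89 and 6.60.

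Of 11 measured genes in a list of orexin and MCH neuron genes, 2 were called higher and 0 lower, and these were the 2 precursors. Over all genes 0.638% were called higher and 0.401% lower, the shares to set beside each list count against the other hypothalamus. The median difference of the list was 0.41, against -0.04 over all genes. Among the others, Plagl1, an imprinted zinc finger gene, was 12.92 and 12.84 in DM (difference 0.87 ± 0.13), Nptx2, a neuronal pentraxin, was 8.17 and 7.95 (0.87 ± 0.13), and Cartpt, the precursor of CART peptides, was 11.67 and 11.55 (0.82 ± 0.15). None of the 3 reached 2-fold, and in each the DM arrays overlapped the other arrays, which ran to 13.55, 9.33 and 12.73. Pdyn, the dynorphin precursor that orexin neurons also make, was 7.19 and 6.58 in DM, below the median of all values (0.19 ± 0.11, adjusted p = 0.207).

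**Figure D2:**
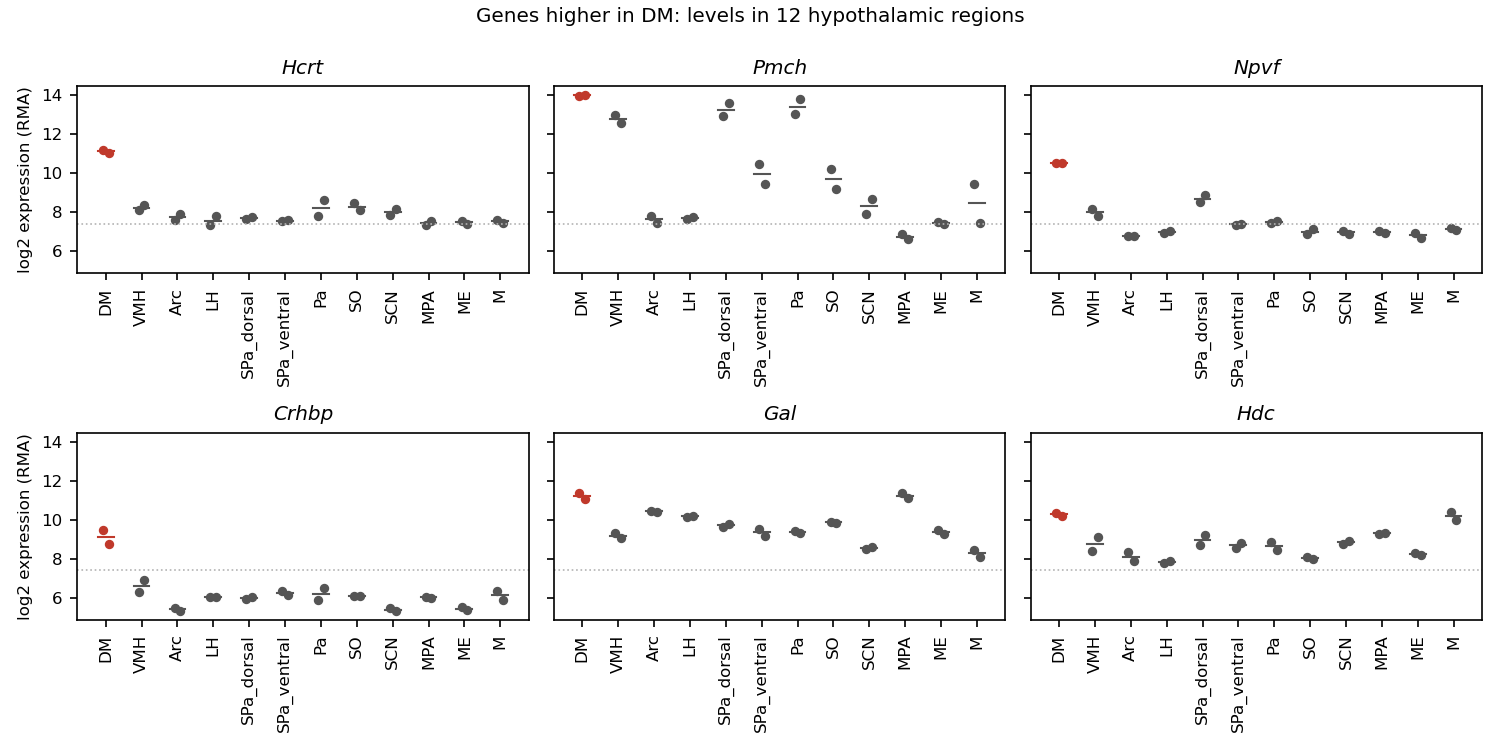
Log2 expression of 6 genes in DM (red, left) and the 11 other hypothalamic regions (grey). Points are single arrays, bars the mean of the 2 arrays of a region, and the dotted line the median of all values, 7.39. Hcrt, Npvf and Crhbp are highest in DM by a wide margin, Pmch is also high in VMH, SPa_dorsal and Pa, Gal is as high in MPA, and Hdc is as high in M.

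Among genes of the dorsomedial nucleus, 5 of 12 measured were called higher and 0 lower, with a median difference of 0.68. The lower count was 1 without DM replicate 1, without M replicate 2, after quantile normalization or without any 1 of 7 regions. Npvf, the precursor of RFamide-related peptides, which act on reproduction and feeding, was 10.54 and 10.52 in DM, against 6.67 at the lowest, 7.05 at the median and 8.89 at the highest elsewhere in the hypothalamus. Its DM arrays were above all other arrays with a gap of 1.63, and the difference was 3.25 ± 0.09, or 9.48-fold, with the reference mean below the median of all values (adjusted p = 2.92e-37). The next hypothalamic regions were SPa_dorsal, at 8.69 ± 0.28, and VMH, at 7.98 ± 0.24. With regional means as samples the adjusted p was 0.203.

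Ppp1r17, an inhibitor of protein phosphatases that is otherwise known from Purkinje cells, was 9.35 and 8.85 in DM, against 5.18, 7.00 and 8.46 at the lowest, median and highest of the other arrays. The groups did not overlap (2.11 ± 0.23, adjusted p = 5.05e-11), although the cerebellar lobe had more, at 11.35 ± 0.02. Grp, gastrin-releasing peptide, was 9.81 and 9.59 in DM, against 6.75, 7.42 and 10.23 in the others. Only SCN, at 10.22 ± 0.01, was above DM among hypothalamic regions (1.81 ± 0.18, adjusted p = 3.42e-12).

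Gal, the galanin precursor, was 11.37 and 11.07 in DM, against 8.10, 9.49 and 11.35 in the other 22 arrays. DM and MPA shared the top of the order, with means of 11.22 ± 0.21 and 11.23 ± 0.17 that did not differ beyond their spread, and the difference from the whole reference was 1.63 ± 0.11 (adjusted p = 4.32e-18). Trh, the precursor of thyrotropin-releasing hormone, was 10.35 and 9.93 in DM, against 7.52, 8.65 and 10.99 in the others. MPA was higher, at 10.97 ± 0.02, while Pa at 10.22 ± 0.08 and LH at 10.13 ± 0.15 lay within the spread of DM at 10.14 ± 0.29 (1.15 ± 0.12, adjusted p = 4.26e-11).

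The remaining members of the list did not pass the fold threshold. Cck, cholecystokinin, was 9.23 and 9.08 in DM and differed by 0.91 ± 0.22, and Gpr50, a melatonin-related receptor, was 7.88 and 7.57 and differed by 0.45 ± 0.10. Npy, neuropeptide Y, was 9.18 and 8.99 in DM, a difference of -0.95 ± 0.15, and the other arrays reached 13.66. Lepr, the leptin receptor, was 8.05 and 8.22 in DM, against 7.93 to 9.03, and Nkx2-1 and Bdnf differed by 0.13 and 0.21. Prlh and Mc4r were not analysed here.

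Peptides and amines of other nuclei differed both ways, with 3 of 18 measured genes called higher and 3 lower and a median of -0.16. Crhbp, the secreted protein that binds corticotropin-releasing hormone and blunts its action, was not on a list but had the second largest gap of the named genes. It was 9.46 and 8.74 in DM, against 5.30, 6.03 and 6.88 at the lowest, median and highest of the other hypothalamic arrays. The groups did not overlap, and every other hypothalamic region was under 7.39, so the fold of 8.91 is uncertain in size (3.16 ± 0.15, adjusted p = 4.47e-26). Outside the hypothalamus it reached 9.19 ± 0.27 in hippocampal field CA1 and 8.88 ± 0.10 in VTA. Crh itself was 7.57 and 6.62 in DM, against 4.17, 4.48 and 9.14, and was higher in Pa (9.10 ± 0.06) and LH (8.90 ± 0.31). MPA, at 7.21, was about level with the DM mean of 7.09, which lies below the median of all values. The difference of Crh was 1.53 ± 0.26 (adjusted p = 3.61e-06), and the DM arrays lay further apart (SD 0.67) than those of Pa or LH.

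Tac1, which encodes substance P and neurokinin A, was 11.65 and 11.89 in DM, against 8.30, 10.23 and 12.68 elsewhere. VMH, at 12.18 ± 0.61, was highest, and a second probe set of Tac1 gave a difference of -0.23 where the brighter one gave 1.25 ± 0.23. Hdc, the enzyme that makes histamine, was 10.36 and 10.21 in DM, against 7.79, 8.61 and 10.37, so DM and M, which lies next to the histamine neurons of the tuberomammillary nucleus, overlapped at the top (DM 10.28 ± 0.10, M 10.17 ± 0.28). Its difference was 1.60 ± 0.11 (adjusted p = 4.92e-18).

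Among genes of transmitter synthesis and release, 3 of 13 measured were higher and 0 lower, with a median of 0.30. These were Hdc, Slc18a2 and Slc17a6. Slc18a2, the vesicular transporter that loads monoamines including histamine, was 10.07 and 9.94 in DM, against 6.50, 7.99 and 10.18 (1.93 ± 0.27, adjusted p = 6.83e-08). One M array was above both DM arrays, and VTA had far more, at 12.34 ± 0.48. Slc17a6, the glutamate transporter of hypothalamic excitatory neurons, was 12.41 and 12.44 in DM, against 8.95, 11.14 and 12.77 (1.24 ± 0.18, adjusted p = 1.55e-07). Its means in M (12.59) and SPa_dorsal (12.47) were above that of DM (12.42), VMH (12.27) was close, and ME was lowest (9.12). With SO and ME left out of the reference, a choice made after seeing the data, 2 genes of the list were called higher. The genes of GABA synthesis and loading were not called. Gad1 was 12.53 and 12.50 in DM and differed by 0.75 ± 0.21, Gad2 differed by 0.23 ± 0.17 and Slc32a1 by 0.51 ± 0.20. Th and Ddc, which make dopamine, differed by 0.30 ± 0.17 each and were not called, and Tph2, the enzyme of serotonin neurons, was 4.48 and 4.43 in DM.

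Transcription factors differed in both directions. Of 29 measured factors of hypothalamic identity, 4 were higher and 5 lower, and the list's median of 0.04 was close to that of all genes. Ebf3, a helix-loop-helix factor of the Collier and Olf1 family, was 9.26 and 9.24 in DM, against 5.62, 5.97 and 8.61 in the other arrays. The groups did not overlap and only SO came near, at 8.59 ± 0.02. Its difference was 2.87 ± 0.14 (adjusted p = 8.96e-26), and its 3 probe sets gave 2.58 to 3.84. Beyond the hypothalamus it was 9.36 ± 0.16 in VTA and 9.50 ± 0.41 in the posterior spinal cord.

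Nhlh2, a factor whose loss makes mice obese, was 9.27 and 8.67 in DM, against 5.53, 6.83 and 9.07, and M at 9.00 ± 0.10 was level with it (1.98 ± 0.16, adjusted p = 2.11e-15). The neighbouring Iroquois genes Irx3 and Irx5 were both higher. Irx3 was 8.39 and 8.15 in DM, against 5.80, 6.56 and 8.13, and Irx5 was 7.80 and 7.64, against 5.75, 6.36 and 7.22. Neither overlapped the other arrays, Irx3 by a margin of 0.01 only (1.61 ± 0.13 and 1.32 ± 0.14). Foxa1, a forkhead factor of midbrain dopamine and subthalamic neurons, was 7.67 and 7.29 in DM, against 5.18, 5.63 and 6.68 (1.80 ± 0.16, adjusted p = 6.38e-14). It was the only called gene among 10 measured mammillary and subthalamic genes, whose median was 0.20, and it reached 9.80 ± 0.12 in VTA. Lhx6, a factor of GABA neurons and of the zona incerta, was 8.42 and 8.40 in DM, against 6.14, 6.55 and 9.39, with LH higher at 9.19 ± 0.27. The difference was 1.54 ± 0.15, but the other probe set gave 0.20. Hmx2 and Hmx3, homeobox genes of the developing hypothalamus, differed by 0.81 ± 0.09 and 0.89 ± 0.08 and did not reach 2-fold. MPA was almost level with DM in both, at 6.61 against 6.65 for Hmx2 and 5.97 against 6.01 for Hmx3. These levels lie below the median of all values.

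The factors that were lower in DM did not all peak in the same region. Six6 was 4.85 and 5.00 in DM, against 4.85, 5.91 and 9.17 (-1.51 ± 0.14), and Foxd1 was 4.98 and 5.12, against 5.23, 6.12 and 9.23 (-1.44 ± 0.14). Six6 was highest in ME and Foxd1 in SO. Lhx2, a factor of tanycytes, was 6.12 and 5.81 in DM, against 5.97, 6.76 and 10.18 (-1.28 ± 0.15). Fezf1 was 5.35 and 5.41, against 5.07, 6.17 and 9.69 (-1.15 ± 0.11), and it marked VMH and SPa_dorsal. Vax1 was 7.52 and 7.41 in DM, against 7.30, 8.11 and 10.41 (-1.07 ± 0.10), with its peak in SCN. Of the 5, Foxd1 alone had both DM arrays below all others. Six3, of the list of zona incerta and GABA lineage factors, was 7.28 and 7.28 in DM, against 7.29, 8.78 and 10.87 (-1.76 ± 0.14), but another probe set differed by only -0.13 and the mean of its probe sets by -0.79, under 2-fold. Zic1, which the thalamic list holds, was 8.61 and 8.40 in DM, against 7.63, 10.92 and 12.37 (-1.90 ± 0.32), and VMH, Arc, SPa_dorsal and ME were also low. Against VMH, Arc, SPa_dorsal, Pa and LH alone the difference of Zic1 was -0.95 (adjusted p = 0.0297), under 2-fold. It was the only called member of 10 measured thalamic neuron genes, whose median was 0.01.

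**Figure D3:**
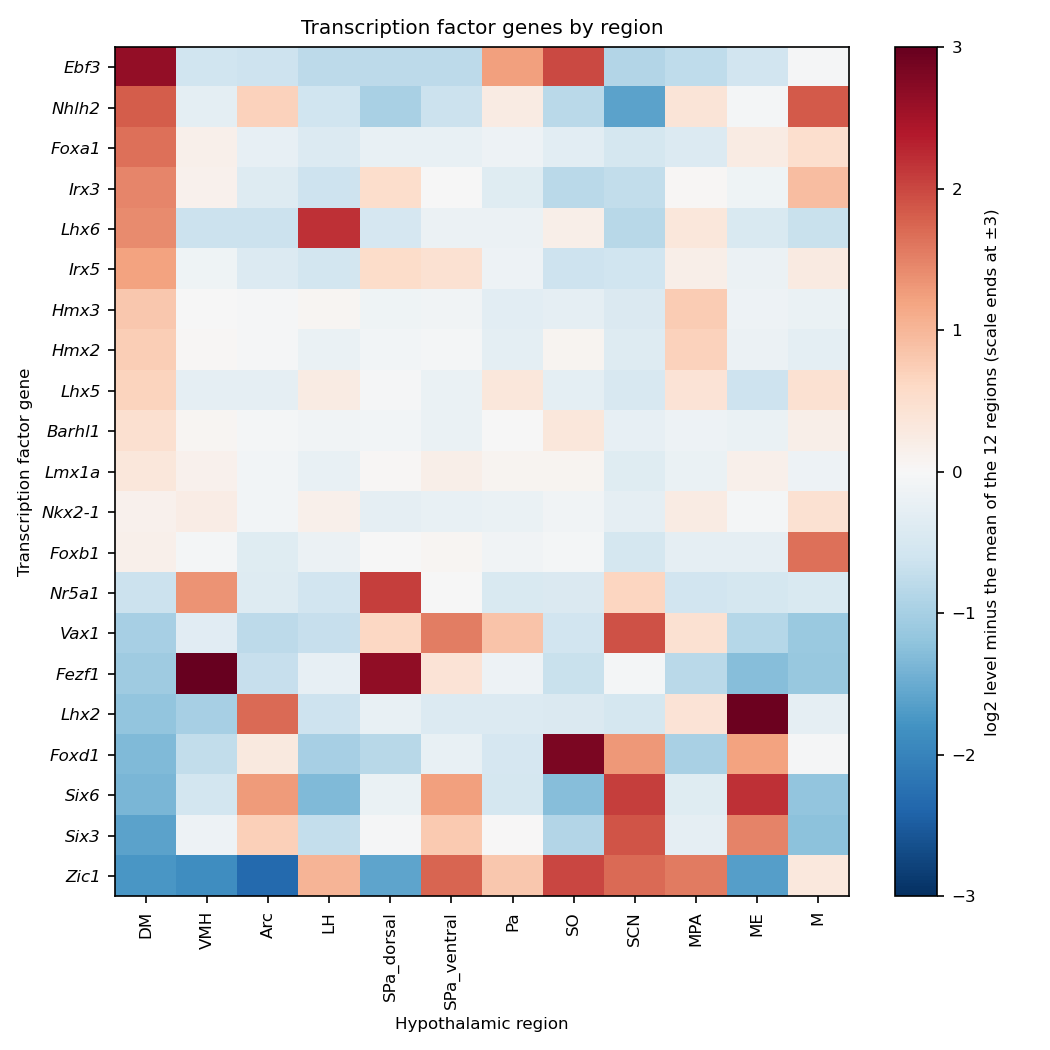
Levels of 21 transcription factor genes in 12 hypothalamic regions, DM at the left, each as the log2 level minus that gene's mean of the 12 regions. Red is above and blue below that mean. Ebf3, Foxa1, Irx3 and Irx5 are highest in DM, Hmx2 and Hmx3 are almost level in DM and MPA, and DM is second for Nhlh2 and Lhx6. The lower genes have their peaks in VMH and SPa_dorsal (Fezf1, Nr5a1), SO (Foxd1, Zic1), SCN (Vax1, Six3) or ME (Lhx2, Six6).

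Vasopressin and oxytocin gave the largest differences in the other direction. Avp was 7.09 and 7.03 in DM, against 7.05 at the lowest, 11.23 at the median and 14.41 at the highest in the other 22 arrays. DM was at the bottom together with M, at 7.11, and every other region was higher. The difference was -4.02 ± 0.16 (adjusted p = 2.79e-30), which as a ratio is 16.3-fold lower, and since the DM level is below the median of all values that ratio is uncertain in size. Oxt was 10.13 and 10.05 in DM, against 10.12, 12.04 and 14.84, so DM was again level with M, at 10.14, and with SPa_dorsal, at 10.17 (-2.12 ± 0.14, adjusted p = 3.88e-19). Pomc, the precursor of melanocortins, was 8.08 and 8.03 in DM, against 8.10, 8.54 and 13.19 (-1.60 ± 0.14, adjusted p = 2.26e-14). Both DM arrays were below every other hypothalamic array, although LH at 8.15 was almost the same. With regional means as samples the adjusted p of Avp, Oxt and Pomc was 0.898 each. Of 10 measured ventromedial genes 0 were called higher and 1 lower (Fezf1), with a median of -0.13, and of 10 arcuate genes 0 and 1 (Pomc), with a median of -0.09. At any fold the adjusted test passed 4 ventromedial and 5 arcuate genes as lower and 2 of each list as higher. Over all genes it passed 13.4% as lower and 17.5% as higher. Fezf1 was not called without VMH or without SPa_dorsal, and 2 arcuate genes were lower without DM replicate 1, without M replicate 2, after quantile normalization or without any 1 of 7 regions.

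**Figure D4:**
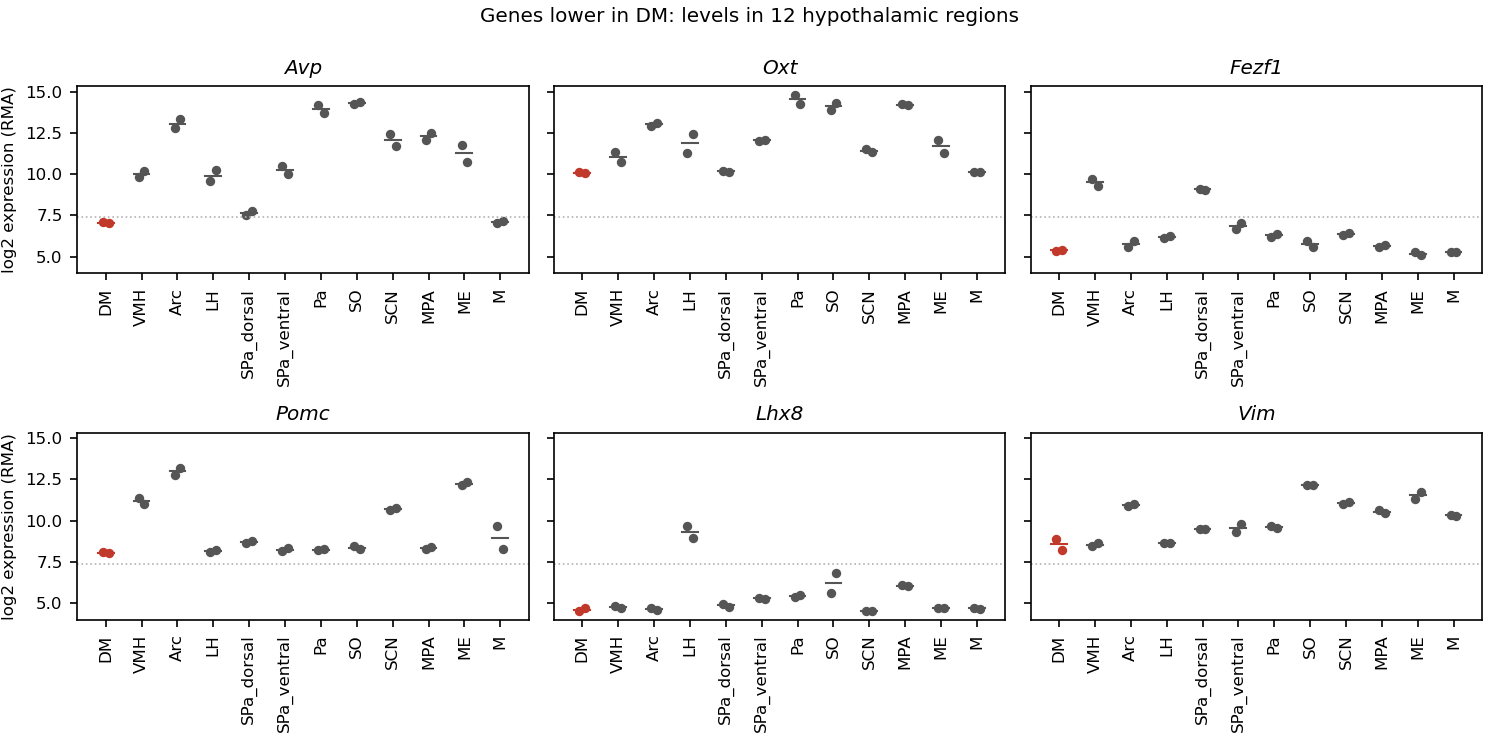
Log2 expression of 6 genes that were lower in DM in at least 1 comparison, in DM (red, left) and 11 other hypothalamic regions (grey). Points are single arrays, bars means of 2 arrays, and the dotted line the median of all values, 7.39. DM is level with M for Avp and Oxt, and Fezf1 is high in VMH and SPa_dorsal, Pomc in Arc, ME, VMH and SCN, and Lhx8 in LH, while Vim is high in SO, ME, SCN and Arc.

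Some genes of the meninges and of cells along the ventricle were also lower in DM than in the mean of the 11 regions. Of the 73 lower genes, 62 (84.9%) had their highest other level in SO or ME, where 5595 (30.8%) of all genes had theirs. Of 10 measured genes of meninges and fibroblasts, 5 were lower and 0 higher, with a median of -0.97, and the mean level of the 10 genes was 7.68 and 7.80 in DM, against 7.63 at the lowest, 7.84 at the median and 10.69 at the highest in the other arrays. DM was level with MPA, Pa, VMH, LH and both parts of SPa, while M, SCN, Arc, ME and SO were all above 8.8. The called genes were Ogn (-1.34 ± 0.21), Dcn (-1.14 ± 0.18), Col3a1 (-1.11 ± 0.17), Slc6a13 (-1.09 ± 0.12) and Lum (-1.02 ± 0.15), which encode matrix proteins and a meningeal GABA transporter. In Slc6a13 as in the others the DM arrays overlapped the reference arrays. The count was 3 without DM replicate 1 or without Arc, and 1 without ME or without SO. With SO and ME left out of the reference, a choice made after seeing the data, 0 of the 10 were called, the median was -0.53, and the counts over all genes were 79 higher and 27 lower.

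The named genes of this kind included Efemp1, an extracellular matrix protein, at 5.76 and 5.17 in DM, against 5.57, 7.53 and 10.50 (-2.06 ± 0.17). S100a6, a calcium-binding protein, was 7.36 and 6.96 in DM, against 6.62, 9.21 and 10.47 (-1.74 ± 0.16), and Islr was 6.94 and 6.89, against 6.49, 7.42 and 11.78 (-1.69 ± 0.20). Vim, the filament protein vimentin of tanycytes and vessels, was 8.91 and 8.20 in DM, against 8.43, 10.31 and 12.19 (-1.66 ± 0.14). In each of these 4 genes the groups overlapped. Pcolce, Slc6a20a, Mgp, Igfbp2, Aldh1a2 and Anxa2 differed by -1.64 to -1.45, with their highest levels in SO or ME, another probe set of Pcolce gave -0.56, another of Anxa2 gave 0.01, and the mean of the probe sets of Anxa2 differed by -0.55. Set against VMH, Arc, SPa_dorsal, Pa and LH alone, all 10 of these genes differed by less than 2-fold. Tanycyte genes had 2 of 11 lower (median -0.51), ependymal genes 1 of 9 (Dynlrb2, 8.16 and 7.54 in DM; median -0.75, and all 9 below 0), choroid plexus genes 1 of 8 (Kcnj13, -1.10 ± 0.16), astrocyte genes 1 of 12 (Aqp4, -1.27 ± 0.17) and anterior pituitary genes 1 of 7 (Cga). Dynlrb2 lay at the 2-fold threshold and was not called without DM replicate 2 or without any 1 of 10 reference arrays, nor Cga without DM replicate 1 or without ME, nor Kcnj13 without SO. Aqp4 and Kcnj13 were not called against VMH, Arc, SPa_dorsal, Pa and LH alone, and 1 tanycyte gene was lower without ME. Against VMH the ependymal median was 0.30 and against LH 0.31. The part of these cell types in the results was not tested.

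Markers of the other cell types passed no test of 2-fold in either direction. Among 12 myelin genes the median was 0.09, among 7 genes of oligodendrocyte precursors -0.12, and among 12 genes of endothelium and pericytes -0.13. The 12 microglial genes were all below 0, with a median of -0.38 and the largest difference in C1qb (8.66 and 8.43 in DM, -0.87 ± 0.13). At any fold, 8 of the 12 were lower by the adjusted test, against 13.4% of all genes. The 2 measured erythroid genes differed by 0.03 and -0.52.

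**Figure D5:**
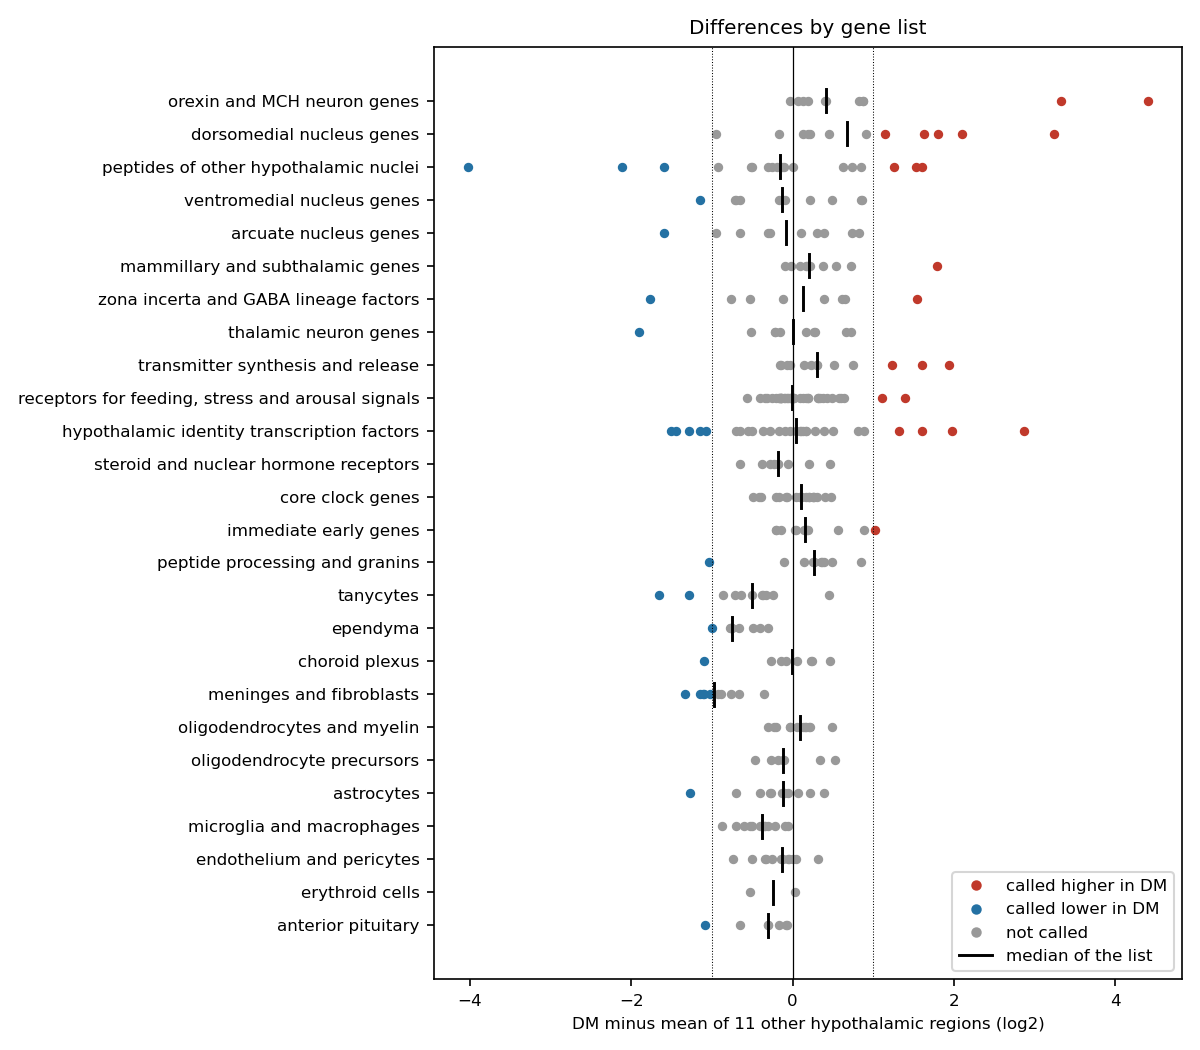
Differences in log2 expression, DM minus the mean of the 11 other hypothalamic regions, for each measured member of 26 gene lists, 1 row a list. Points are genes, red where called higher, blue where called lower and grey where not called; black bars are list medians and dotted lines mark 2-fold. The orexin and MCH list and the dorsomedial list reach furthest to the right, and the meningeal and ependymal lists lie to the left of 0.

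Several genes outside the lists were higher. Oas1c, of the oligoadenylate synthetase family, was 10.68 and 10.20 in DM, against 6.04, 6.39 and 9.91 (3.31 ± 0.25, adjusted p = 2.73e-16). Its levels were spread unevenly, with SCN at 9.47 ± 0.63, SPa_ventral at 8.93, SPa_dorsal at 8.81 and ME at 7.29. The rest of the hypothalamus lay between 6.16 and 6.37, and VTA was 9.98 ± 0.25. DM, SCN, ME and both parts of SPa also had the lowest mean hybridisation controls, at 9.29 to 9.93 against 10.65 to 11.21 in the rest. Zfp131, singled out after its values were seen, was higher in the same regions. It was 10.52 in DM, 10.31 in SCN, 10.29 in SPa_dorsal, 9.84 in SPa_ventral and 9.46 in ME, and 8.33 to 8.64 in the rest. The part of these controls in the levels of Oas1c and Zfp131 was not tested. Whether the Oas1c probes bind transcripts of other family members was not tested either. Peg10, an imprinted gene derived from a retrotransposon, was 8.03 and 8.13 in DM, against 5.18, 5.76 and 7.26 (2.20 ± 0.15), and was above all other arrays. Asb4, an imprinted gene of feeding circuits, was 10.21 and 10.04 in DM, against 5.59, 8.20 and 10.81, so ME, at 10.68 ± 0.20, and Arc were higher (1.98 ± 0.26).

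Synpr, a synaptic vesicle protein, was 11.09 and 11.07 in DM, against 6.95, 9.23 and 11.11 (1.87 ± 0.21), level with SCN at 11.04 ± 0.10. C1ql3, a secreted synapse organiser, was 10.32 and 10.21, against 6.72, 8.62 and 11.60 (1.70 ± 0.29), with SCN higher. Nxph1, a ligand of neurexins, was 10.33 and 10.41 in DM, against 7.71, 9.05 and 9.57 (1.47 ± 0.11). Nxph1 did not overlap the reference, and the other probe sets of that gene gave differences down to 0.54. Olfm2, Fgf13 and Cntnap1 were also above all 22 arrays, by gaps of 0.94, 0.63 and 0.60, with differences of 1.44 ± 0.14, 1.20 ± 0.10 and 1.33 ± 0.15.

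Of the 116 higher genes, 17 were above all other arrays of the series, as were 127 (0.698%) of all genes. The 116 were themselves picked for being high in DM. After Hcrt, Npvf and Peg10, the named ones had gaps of at most 0.48 and differences close to the threshold. They were Podxl2 (1.13 ± 0.12), a sialomucin, Pnma3 (1.16 ± 0.11), Tox2 (1.02 ± 0.09), the small GTPases Rac3 (1.03 ± 0.11) and Rab5b (1.18 ± 0.11), Rnf208 (1.35 ± 0.11) and the splicing factor Nova1 (1.04 ± 0.10). The second probe set of Rab5b gave -0.10 and that of Tox2 gave 0.06. Without DM replicate 1 Rac3 differed by 0.77 and Nova1 by 0.99, and Tox2 was under 2-fold without DM replicate 2. After quantile normalization Nova1 and Rac3 differed by 0.92 each and Tox2 by 0.89. Against the regions of nearest hybridisation controls Pnma3 differed by 0.94 and Tox2 by 0.78. The nearest other region was SCN for Podxl2, Pnma3 and Rab5b. Within the hypothalamus SCN was the highest other region for 39 of the 116 higher genes, against 2546 of all 18193 genes. Hybridisation controls averaged 9.93 in SCN and 9.66 in DM, and their part in this was not tested.

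Few receptors and no clock genes passed the 2-fold test. Of 40 measured receptors for feeding, stress and arousal signals, 2 were higher and 0 lower, with a median of -0.01. Ntsr1, a neurotensin receptor, was 8.79 and 8.30 in DM, against 6.40, 7.10 and 8.35 (1.39 ± 0.12), which overlapped, and Trhr, the receptor for thyrotropin-releasing hormone, was 7.68 and 7.55, against 4.81, 6.69 and 7.50 (1.10 ± 0.19), which did not. Another probe set of Trhr gave 0.38. Without SO in the reference the count of higher receptors was 1. The receptors for orexin and MCH were not called. Hcrtr1 was 6.55 and 6.93 in DM, against 6.33 to 7.71, Hcrtr2 was 8.61 and 8.50, against 7.76 to 8.62, and Mchr1 was 8.92 and 8.83, against 8.28 to 9.06. In all 3 the groups overlapped.

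Of 9 steroid and nuclear hormone receptors and 20 core clock genes, 0 were called by limma in either direction, with medians of -0.18 and 0.10. At any fold, where 17.5% of all genes were higher and 13.4% lower, the adjusted test passed 1 higher and 4 lower hormone receptors, and 4 higher and 3 lower clock genes, among them Cry2 (9.94 and 9.81 in DM, 0.40 ± 0.08), Nr1d1 (9.41 and 9.34, 0.48 ± 0.10) and Dbp (10.32 and 10.38, -0.49 ± 0.12). Fos, an immediate early gene, was 9.49 and 10.08 in DM, against 8.16, 8.66 and 9.90 (1.02 ± 0.20, adjusted p = 3.44e-05), and it was the only 1 of 12 such genes called. Without DM replicate 2 none of the 12 were called, nor without Pa, SPa_dorsal, VMH or LH, and without DM replicate 1 the count was 2. Of 11 peptide processing genes and granins, 0 were higher and 1, Cadps2, lower (9.67 and 9.52 in DM, -1.03 ± 0.23; not called without DM replicate 2 or without SCN), while Vgf was 12.33 and 12.04 and differed by 0.85 ± 0.13.

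Against VMH, the nucleus just below, 256 genes (1.41%) were higher in DM and 80 (0.44%) lower. Fezf1, a factor that ventromedial neurons need, was 5.35 and 5.41 in DM, against 9.69 and 9.30 in VMH (-4.12 ± 0.15, adjusted p = 3.85e-31). Qrfpr, a receptor for RFamide peptides, was 5.27 and 5.03 in DM, against 8.88 and 8.57 in VMH (-3.57 ± 0.15), and Nr5a1 was 6.44 and 6.57, against 8.49 and 8.51 (3.99-fold, adjusted p = 9.92e-19), where its other probe set gave a log2 difference of -0.24. The groups were far apart in all 3. Pomc (-3.14 ± 0.18), Avp (-2.95 ± 0.21) and the orphan receptor Gpr149 (-2.55 ± 0.16) were also lower, and 4 of 10 ventromedial genes were lower in all, with a median of -0.71.

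In the other direction, Oas1c (4.24 ± 0.34), Ebf3 (3.24 ± 0.18) and Hcrt (2.90 ± 0.15) were higher in DM than in VMH. Kit, a receptor tyrosine kinase, was 9.27 and 9.30 in DM, against 5.82 and 6.41 in VMH (3.17 ± 0.23, adjusted p = 5.17e-17). Nrn1, neuritin, was 10.54 and 10.56, against 7.22 and 8.33 (2.77 ± 0.23), and Grp was 9.81 and 9.59, against 6.75 and 7.22 (2.72 ± 0.24). Of the 12 dorsomedial genes, 7 were higher, with a median of 1.55, and 5 of 13 transmitter genes, among them Gad1 (1.83), Gad2 (1.42) and Slc32a1 (1.88). Myelin genes differed as well, with 7 of 12 higher and a median of 1.02, and the part of white matter in these differences was not tested.

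Against Arc, 307 genes (1.69%) were higher in DM and 248 (1.36%) lower. Avp was 7.09 and 7.03 in DM, against 12.81 and 13.32 in Arc (-6.00 ± 0.21, adjusted p = 9.66e-33). Pomc was 8.08 and 8.03, against 12.79 and 13.19 (-4.93 ± 0.18), and Npy was 9.18 and 8.99, against 13.40 and 13.47 (-4.35 ± 0.21). Pomc and Npy are the signature peptides of arcuate feeding neurons, and 7 of 10 arcuate genes were lower, with a median of -1.13. Lrat, a retinol-esterifying enzyme, at 5.42 and 5.58 in DM, against 10.69 and 11.16 in Arc (-5.42 ± 0.16), and Dio2, the tanycyte enzyme that activates thyroid hormone, at 7.03 and 7.04, against 10.88 and 11.05 (-3.93 ± 0.15), were lower too. Tanycyte genes were lower in 8 of 11 cases (median -1.66) and meningeal genes in 8 of 10 (median -1.72). Cga, the shared subunit of pituitary glycoprotein hormones, was 6.30 and 6.68 in DM, against 10.79 and 10.80 (-4.31 ± 0.14). The genes furthest higher were Pmch (6.35 ± 0.37), Oas1c (4.08 ± 0.34), Npvf (3.74 ± 0.13), Crhbp (3.70 ± 0.20), Hcrt (3.37 ± 0.15) and Ebf3 (3.26 ± 0.18).

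Against the piece labelled LH, 118 genes (0.649%) were higher in DM and 57 (0.313%) lower, and without LH replicate 1 the higher count was 194. Pmch was 13.93 and 14.03 in DM, against 7.66 and 7.73 in LH (6.29 ± 0.37, adjusted p = 3.12e-21), and Hcrt was 11.17 and 11.05, against 7.32 and 7.78 (3.56 ± 0.15, adjusted p = 6.03e-29). Of the 11 orexin and MCH neuron genes, 5 were higher in DM, with a median of 0.66. Oas1c (4.20 ± 0.34), Npvf (3.58 ± 0.13) and Ebf3 (3.43 ± 0.18) followed, and Asb4 was 10.21 and 10.04, against 6.61 and 6.14 (3.75 ± 0.35). Lower in DM were Lhx8, at 4.53 and 4.67, against 9.70 and 8.98 (-4.74 ± 0.19, adjusted p = 1.02e-29), Avp (-2.85 ± 0.21), Meis2 (-2.78 ± 0.20), Zic1 (-2.76 ± 0.44), the neurotensin precursor Nts (-2.25 ± 0.26) and Rph3a (-2.23 ± 0.36), a vesicle protein whose DM arrays were 8.31 and 9.76. Another probe set of Meis2 gave -0.72. Myelin genes were lower in 5 of 12 cases, with a median of -0.87, which was opposite in sign to the comparison with VMH. The comparisons with VMH, Arc and LH share the DM arrays, and those regions are also part of the wider reference, so they are not independent of each other.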

How the data were processed

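RNA from punches of 52 regions was hybridised to expression arrays, 2 per region. The deposited values are log2 signals made by the authors with RMA, per the submitters' processing notes, whose version is not given in the sources used here. Of 45101 probe sets, 34945 carried 1 gene symbol, 932 several, 9160 none and 64 were controls. The probe set with the highest mean over all arrays stood for each of 18193 genes, 9010 of which had several.

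A model with 1 mean per region was fitted to all arrays in limma 3.58.1 (R 4.3.3; 52 residual degrees of freedom), and DM was contrasted with the equally weighted mean of 11 hypothalamic regions and with VMH, Arc and LH. Tests were two-sided, with Benjamini-Hochberg adjustment over all genes, and a call needed an adjusted p under 0.05 and a 2-fold difference. The script was tested on simulated data. A permutation over 12 regions cannot give a p below 0.0833.

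The genes named are Hcrt and Pmch, the 15 called genes with the largest difference in each direction (6 for each neighbour) whose higher group reached the median of all values, up to 10 by their gap over all other arrays or all other hypothalamic arrays, and members of 26 gene lists, of whose 320 genes 295 were measured. Members and lists were chosen with earlier results of these data known. Same-numbered arrays of DM and the other regions did not deviate in a common direction, though some correlated (r = -0.47 to 0.34, median -0.05, over 0.1 in 4 of 11). The numbers were therefore not treated as pairs. Alternatives covered normalization, dim genes, probe sets, the variance model, the fold threshold, the arrays and the reference regions.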

Additional observations from a re-analysis of the deposited data

How the results depend on the processing

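With the replicate number as a block, the counts of genes higher and lower in DM were 116 and 73 against the other hypothalamus, 255 and 80 against VMH, 307 and 248 against Arc and 118 and 57 against LH. When every probe set was tested on its own, the counts were 244 and 131, 499 and 228, 650 and 471, and 243 and 127 in the same order. Without a fold threshold they were 3187 and 2431, 3291 and 1971, 2589 and 2178, and 1902 and 987. Averaging the probe sets of each gene gave 49 lower genes against VMH. Against the other hypothalamus, the regional means as samples gave 4 higher and 0 lower. The lower count was 46 without ME, 27 without SO and ME and 23 against VMH, Arc, SPa_dorsal, Pa and LH alone. Leaving out 1 array at a time gave 92 to 194 higher and 52 to 70 lower genes against LH, where 194 was the count without LH replicate 1, and moved none of the other 6 counts by over 1.5 times. Leaving out 1 region at a time gave 90 to 129 higher and 46 to 88 lower. Of 2048 values of 41 named genes against the other hypothalamus, 1965 kept their direction and call, 81 kept only their direction, 39 of them with regional means as samples, and 2 reversed, both in another probe set: Anxa2 at 0.014 and Rab5b at -0.10. The cause was not tested. With 2 arrays a region, the spread of DM itself is poorly known, and dim genes carry little signal over background.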
